A study of Mus musculus with 16 samples.

Results

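The 8 genes described here encode the pore-forming alpha subunits of the neuronal voltage-gated calcium channels. They are Cacna1c and Cacna1d (L-type), Cacna1a (P/Q-type), Cacna1b (N-type), Cacna1e (R-type), and Cacna1g, Cacna1h and Cacna1i (T-type). They were taken by name from the 19999 genes of the count table. No rule on their values was used, but earlier results of these data were known when they were chosen. Their unique molecular identifiers (UMIs, each standing for 1 captured transcript) were summed per mouse within cell classes. Together they held 286460 of 216742276 UMIs, between 13469 and 22952 in a mouse.

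Single nuclei of the medial prefrontal cortex (PFC) of 16 male mice, 22 weeks old, were sequenced on the 10x Genomics platform, with 4 mice in each of 4 groups. WT controls and alcohol-exposed WT mice were of the B6;129 strain. The 3xTg-AD mice, which were either unexposed or alcohol-exposed, carry mutant human APP and tau transgenes, which in this line are driven by the neuronal Thy1 promoter, and a mutant human presenilin 1 knock-in, on a B6;129 background. Alcohol groups went through repeated cycles of intermittent alcohol vapor with injections of alcohol and pyrazole, an alcohol dehydrogenase inhibitor. The unexposed groups received pyrazole in saline and air in the chambers, so that all 16 mice had pyrazole, and tissue was taken under isoflurane. Per the study's text, the tissue was taken more than a week after the last vapor exposure and days after testing in a water maze. Every mouse is 1 library, and the mice carry different numbers in each group. The study's text refers to its WT controls as littermates, and the labels do not name any.

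Voltage-gated calcium channels open on depolarization and let calcium into the cell. P/Q- and N-type channels sit at presynaptic terminals and trigger transmitter release, L-type channels of the soma and dendrites couple activity to gene transcription, R-type channels act in dendrites and terminals, and T-type channels open near the resting potential and support bursts of spikes. The alpha subunit forms the pore and sets the type, while beta and alpha2delta subunits control how much channel reaches the membrane.

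The split between the high-voltage-activated channels and the T-type channels can be read in the pore itself, which is why a short stretch of the coding sequence is shown here for each gene. Selectivity for calcium rests on an acidic residue in each of the 4 repeats of the alpha subunit. In repeat III this residue is a glutamate in L-, P/Q-, N- and R-type channels and an aspartate in T-type channels. The sequences below are 30 bases of the GENCODE vM21 principal transcripts (GRCm38), 5′ to 3′ on the coding strand, with the codon of that residue in capitals. Of the 2 places in each transcript where pore-loop codons for threonine, any residue and glutamate, or for serine, lysine and aspartate, were followed by glycine and tryptophan, it is the later one.

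Cacna1c: gtctccaccttcGAAgggtggccagagctg

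Cacna1d: gtctcaacttttGAGggctggcccgcgttg

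Cacna1a: gtgtccacaggaGAGggctggccacaggtc

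Cacna1b: gtgtccacgggaGAGgggtggcccatggtg

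Cacna1e: gtctctacagggGAAggatggcctcaggtt

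Cacna1g: ctggcctccaagGATggctgggttgacatc

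Cacna1h: ctgtcatccaagGATggctgggtaaacatc

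Cacna1i: ttggcctccaagGATggctgggtgaacatc

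The capital codon lies at chr6:118656124-118656126 in exon 27 of Cacna1c and at chr14:30100708-30100710 in exon 26 of Cacna1d. It lies at chr8:84581338-84581340 in exon 27 of Cacna1a, at chr2:24651092-24651094 in exon 27 of Cacna1b and at chr1:154444883-154444885 in exon 29 of Cacna1e. For the T-type genes it lies in exon 24, at chr11:94426471-94426473 in Cacna1g, chr17:25383508-25383510 in Cacna1h and chr15:80376807-80376809 in Cacna1i. Cacna1a and Cacna1i are on the plus strand and the other members on the minus strand. The libraries were made with a 3′ kit, and the counts are per gene and do not show which exon a read came from.

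Seed nuclei were picked by marker genes that include no calcium channel gene. Each nucleus was then placed by likeness to the summed profiles of the seeds over 10548 genes, none of them a calcium channel gene. A broad class also required UMIs of its own markers, and a finer neuronal class did not. Layer 5 ET, for example, had 422 seeds and 4781 nuclei. A class name stands for nuclei that are like the seeds of that type. Of 114512 nuclei, 74419 (65.0%) took a broad class, and 40093 with a median of 869 UMIs took none. The 15 classes tested were 5 glutamatergic classes (superficial intratelencephalic or IT, Rorb+ layer 5 IT, layer 5 extratelencephalic or ET, layer 5-6 near-projecting or NP, and layer 6 corticothalamic or CT), 5 GABAergic classes (Pvalb, Sst, Vip, Lamp5 and Cnr1+ Sncg) and 5 non-neuronal classes. Classes ranged from 17000 superficial IT nuclei to 410 endothelial nuclei. Layer 6 IT neurons had no marker list and fell into the nearest class or stayed unresolved. Mice 26 and 27 (WT controls) and 12 (3xTg-AD) stood apart by the ribosomal RNA-like transcript Gm42418, with 17914 to 29047 CPM (counts scaled to the library total) against 2059 to 4249 in the other 13 mice. Between 3 and 27 nuclei of a pair of libraries shared a barcode, 3400 nuclei (2.97%) in all.

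Levels are given as CPM scaled by the trimmed mean of M-values (TMM) within a class, as mean ± SD of 16 mice. In bulk sums of nuclei, fewer nuclei with a transcript and less of it per nucleus cannot be told apart. The neuronal classes differed most in Cacna1h, Cacna1e and Cacna1g. Cacna1h was 17.4-fold higher in layer 5 ET than in Pvalb nuclei, Cacna1e 7.87-fold higher in superficial IT than in Pvalb nuclei, and Cacna1g 7.22-fold higher in Lamp5 than in layer 6 CT nuclei. Cacna1c, at 1.61-fold between the highest and lowest neuronal class, and Cacna1d, at 1.998-fold, were spread the most evenly over neurons. Each of these 5 differences had the same direction in 16 of 16 mice, except that of Cacna1c (13 of 16).

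**Figure D1:**
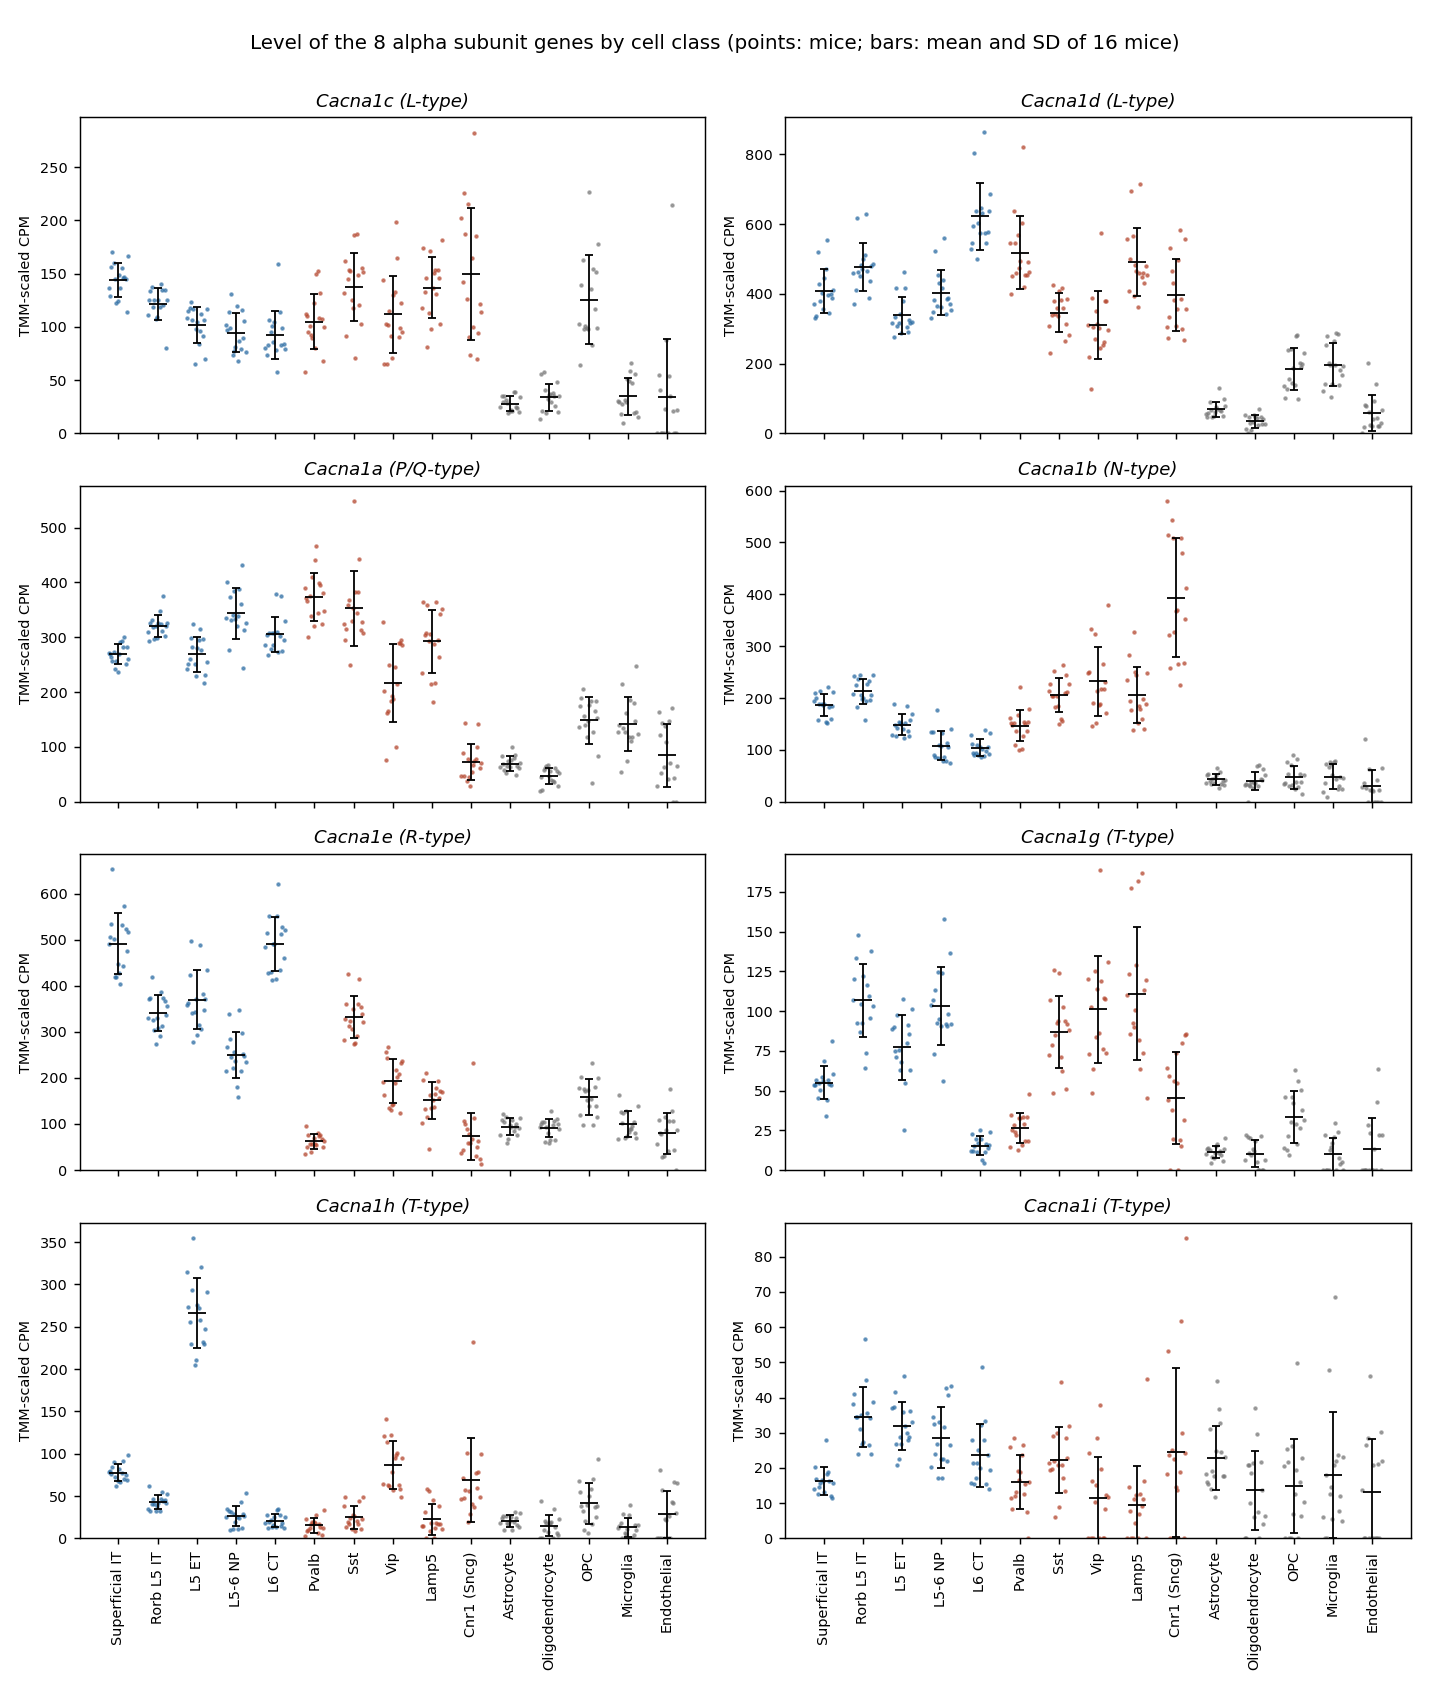
TMM-scaled CPM (y axis, from 0) of each alpha subunit gene in the 15 classes (x axis); points are mice, bars the mean and SD of 16 mice, with glutamatergic classes in blue, GABAergic in red and non-neuronal in gray. Cacna1h stands out in layer 5 ET nuclei (266 CPM), Cacna1b in Cnr1+ Sncg nuclei (394 CPM), and Cacna1e is low in Pvalb nuclei (62.5 CPM).

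The L-type genes were present in all neuronal classes. Cacna1c (ENSMUSG00000051331, chr6:118587240-119196418), the L-type gene also known from heart muscle, had its highest mean in Cnr1+ Sncg nuclei, at 149 ± 61.7 CPM, with mice between 69.9 and 282 CPM and a median of 134 CPM. Superficial IT nuclei followed at 144 ± 16.1 CPM, and the first place was not beyond the spread, since only 9 of 16 mice were higher in Cnr1+ Sncg nuclei. Without mice 12, 26 and 27, superficial IT nuclei came first, at 142 CPM. Layer 6 CT nuclei had the lowest neuronal mean of Cacna1c, at 92.7 ± 22.6 CPM. Only 1 of the 14 steps between neighbors in the order of its levels was larger than the SD of the paired difference.

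Cacna1d (ENSMUSG00000015968, chr14:30039939-30491455), the L-type gene whose channel opens at less depolarized potentials, peaked in layer 6 CT nuclei at 622 ± 96.4 CPM. The lowest mouse had 501, the median 599 and the highest 863 CPM. Pvalb nuclei came second at 518 ± 105 CPM, 1.20-fold lower, with layer 6 CT higher in 15 of 16 mice. Layer 5 ET (338 CPM) and Vip nuclei (311 CPM) were at the low end of the neurons, and layer 6 CT nuclei exceeded layer 5 ET nuclei 1.84-fold in 16 of 16 mice.

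Cacna1a (ENSMUSG00000034656, chr8:84388440-84640246), the P/Q-type gene, was highest in Pvalb nuclei at 373 ± 44.2 CPM, with mice between 299.9 and 465 CPM and a median of 374 CPM. Sst (352 CPM), layer 5-6 NP (343 CPM) and Rorb+ layer 5 IT nuclei (321 CPM) followed, with no step between neighbors beyond the spread. The class that stood apart among neurons was Cnr1+ Sncg, at 72.7 ± 33.2 CPM, 5.13-fold below Pvalb and 2.98-fold below Vip nuclei, each in 16 of 16 mice. It rests there on 86 UMIs, 2 to 10 in a mouse. That level of Cacna1a was close to those in astrocytes (69.7 CPM) and endothelial nuclei (84.9 CPM). Glutamatergic markers were at 23.4% of their glutamatergic level in Cnr1+ Sncg nuclei.

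Cacna1b (ENSMUSG00000004113, chr2:24603887-24763152), the N-type gene, had the reverse order in these interneurons. Cnr1+ Sncg nuclei were highest at 394 ± 115 CPM, with mice between 225 and 580 CPM and a median of 369 CPM. Vip nuclei followed at 232 ± 66.3 CPM, 1.70-fold lower in 15 of 16 mice, and Pvalb nuclei at 147 CPM, 2.68-fold lower in 16 of 16 mice. Layer 6 CT nuclei had the lowest neuronal mean, at 104 ± 16.3 CPM. The Cnr1+ Sncg class held 494 nuclei and 492 UMIs of Cacna1b, so that each mouse rests on 8 to 63 UMIs there.

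Cacna1e (ENSMUSG00000004110, chr1:154390731-154884501), the R-type gene, was 2.54-fold higher in glutamatergic (421 ± 47.5 CPM) than in GABAergic nuclei (165 ± 32.4 CPM), in 16 of 16 mice. Superficial IT (492 ± 66.0 CPM) and layer 6 CT nuclei (490 ± 58.6 CPM) shared the top of the order and did not differ beyond their spread (9 of 16 mice higher in superficial IT). In superficial IT nuclei the mice ranged from 405 to 653 CPM, with a median of 496 CPM. Among GABAergic classes, Sst nuclei held 332 ± 44.9 CPM and Pvalb nuclei 62.5 ± 15.8 CPM, a 5.32-fold difference in 16 of 16 mice. Cacna1e in Pvalb and in Cnr1+ Sncg nuclei (73.1 ± 51.6 CPM, from 78 UMIs with 1 to 9 in a mouse) was below its mean in each of the 5 non-neuronal classes, which ranged from 79.8 to 158 CPM.

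The 3 T-type genes each had an order of their own. Cacna1g (ENSMUSG00000020866, chr11:94408391-94474198) was highest in Lamp5 nuclei at 111 ± 41.7 CPM, with mice between 45.3 and 187 CPM and a median of 105 CPM. Rorb+ layer 5 IT (107 ± 22.7 CPM), layer 5-6 NP (103 CPM) and Vip nuclei (101 CPM) did not differ from it beyond the spread, and Rorb+ layer 5 IT came first without mice 12, 26 and 27, at 114 CPM. Layer 6 CT nuclei held 15.4 ± 5.95 CPM, 6.94-fold below Rorb+ layer 5 IT nuclei in 16 of 16 mice. Pvalb nuclei held 26.5 ± 9.35 CPM, 3.28-fold below Sst nuclei in 16 of 16 mice.

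Cacna1h (ENSMUSG00000024112, chr17:25374285-25433783) had the sharpest pattern of the 8 genes. Layer 5 ET nuclei, the class of the pyramidal neurons that project to the brainstem and spinal cord, held 266 ± 41.6 CPM. The lowest mouse had 204, the median 265 and the highest 355 CPM. Vip nuclei came second at 86.4 ± 28.2 CPM, 3.08-fold lower, then superficial IT nuclei at 77.7 ± 9.98 CPM, 3.43-fold lower, each in 16 of 16 mice. The lowest layer 5 ET value lay above the highest Vip value, 141 CPM. Cacna1h was 12.7-fold lower in layer 6 CT than in layer 5 ET nuclei. In Pvalb nuclei (15.3 ± 8.49 CPM) it was at the level of oligodendrocytes (14.98 CPM).

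Cacna1i (ENSMUSG00000022416, chr15:80287238-80398279) had the fewest UMIs of the 8 genes, 5409 over all nuclei. Rorb+ layer 5 IT nuclei had the highest mean, 34.5 ± 8.46 CPM, with mice between 24.0 and 56.5 CPM and a median of 34.5 CPM, followed by layer 5 ET nuclei at 32.0 ± 6.78 CPM (11 of 16 mice lower). No step between neighbors in the order of Cacna1i was larger than the SD of the paired difference. Between classes farther apart, Rorb+ layer 5 IT exceeded superficial IT nuclei 2.12-fold in 16 of 16 mice.

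Levels of different genes are given here per kilobase of the gene with its introns. Counts of 3′ ends need not scale with gene length, and whether intronic reads were counted is not given in the sources used here, so the values below describe that scale and are no ranking of transcript numbers. In glutamatergic nuclei Cacna1h was at 1.39 CPM per kb of a gene of 59.5 kb. Cacna1a was at 1.16, Cacna1g at 1.11, Cacna1b at 1.11, Cacna1d at 0.997 and Cacna1e at 0.853 CPM per kb. Cacna1i was at 0.229 and Cacna1c at 0.200 CPM per kb, over 609 kb. Without division by length, Cacna1d was at 450.1 CPM and Cacna1h at 82.6 CPM in the same nuclei, so that the order depends on the scale. In GABAergic nuclei Cacna1h was at 0.568 and Cacna1e at 0.335 CPM per kb, and Cacna1a was at 1.20 and Cacna1b at 1.26 CPM per kb.

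Over the 15 classes, the patterns of Cacna1b and Cacna1c were the most alike within the family (Pearson's r = 0.887 of the mean log2(CPM + 1)), and those of Cacna1a and Cacna1h the least alike (r = 0.31). These correlations describe 15 points that share the split between neurons and other cells. Outside the family, among 11493 genes of at least 20 CPM in a class, the genes closest to Cacna1a were Riok1 (r = 0.982), Gm16183 (0.97) and Synj2bp (0.96). Gm16183 overlaps Cacna1a on the opposite strand, and the sources used here do not say whether counting used the strand. Among those closest to Cacna1e were Phlpp2 (r = 0.897) and Atl1 (0.891). Slc20a1 (r = 0.923), Aifm3 (0.906) and Plekha7 (0.876) were closest to Cacna1i, and Lrrtm1 (0.913), Ptprs (0.91) and Maco1 (0.908) to Cacna1g. For Cacna1h the closest were the unnamed transcripts Gm43260 (r = 0.849), Gm43258 (0.832) and Gm42702 (0.812), a lower likeness than for the other members. Gm17058 (0.953), Ftx (0.952) and Cep164 (0.948) were closest to Cacna1b, Fubp1 (0.978), Zfp329 (0.971) and Cpt1c (0.97) to Cacna1c, and Shfl (0.967), Lrrfip1 (0.963) and Slf2 (0.955) to Cacna1d.

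Non-neuronal nuclei also held UMIs of all 8 genes, and these are given beside the UMIs of neuronal markers found there. The 7 glutamatergic markers, which non-neuronal cells should lack, reached 41.8% ± 4.67 (SD, n = 16) of their glutamatergic level in astrocytes when summed, and 33.1% to 49.9% in the 5 non-neuronal classes. The single markers in astrocytes ranged from 21.3% (Arpp21) to 125% (Tbr1). Of the 40 combinations of 8 members and 5 non-neuronal classes, 30 were below the summed markers. Astrocytes held Cacna1a at 24.0%, Cacna1d at 15.1% and Cacna1e at 22.5% of the glutamatergic level, below the summed markers in 16 of 16 mice. Cacna1a and Cacna1e were above the lowest single marker, Arpp21. The part of neuronal RNA in these levels was not tested. In microglia the means of Cacna1a (48.3%) and Cacna1d (43.7%) were near that of the summed markers (49.9%), with 9 and 5 of 16 mice above it.

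A single member in 1 class exceeded all 7 markers. These markers also served to pick the nuclei, and a glutamatergic nucleus had to hold UMIs of them. The members were not used in this way, so members and markers are not compared on even terms. Cacna1c in OPCs, oligodendrocyte precursors in which L-type channels are known, was at 103% ± 32.2 (SD, n = 16) of its glutamatergic level, against 34.03% to 77.6% for the single markers. It was above the summed markers in 16 of 16 mice, and at 126 ± 41.6 CPM it was 4.49-fold higher than in astrocytes. Cacna1i in astrocytes, at 89.0% ± 24.8 (SD, n = 16), exceeded the summed markers in 16 of 16 mice and 6 of the 7 single markers, but not Tbr1 (125%). Cacna1a in OPCs, at 51.1% ± 15.2 (SD, n = 16), was above the summed markers (44.3%) in 13 of 16 mice and above 3 of the 7 single markers.

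**Figure D2:**
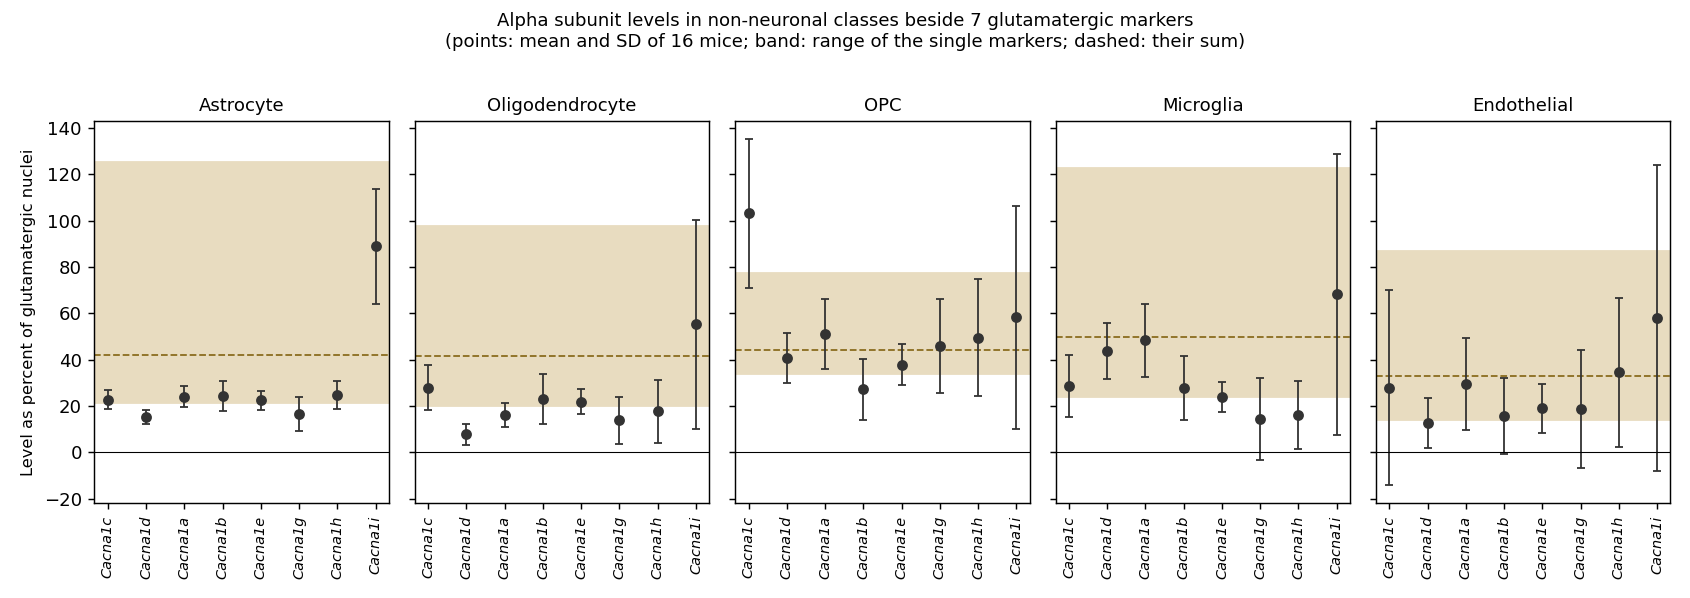
Level of each alpha subunit gene (x axis) in 5 non-neuronal classes as a percent of its level in glutamatergic nuclei (y axis); points are the mean and SD of 16 mice, the band the range of 7 single glutamatergic markers, the dashed line their sum. Cacna1c in OPCs (103%) lies above the band, and most other points lie within or below it.

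The 4 groups were then compared, to ask whether the 3xTg-AD genotype, the alcohol exposure or their combination went with other levels of these genes. Of the 120 combinations of 8 members and 15 classes, 80 passed the filter on low counts, from 13 classes each for Cacna1d and Cacna1e to 5 each for Cacna1h and Cacna1i. In alcohol-exposed 3xTg-AD mice versus WT controls, 0 of the 80 were called by edgeR at an adjusted p of at most 0.05, beside 1.23% of all genes and classes tested. The other counts were also 0 of 80, for 3xTg-AD versus WT controls (0.211% of all), alcohol-exposed WT versus WT controls (0.0414%), alcohol-exposed versus unexposed 3xTg-AD mice (0.227%), alcohol-exposed 3xTg-AD versus alcohol-exposed WT mice (0.436%) and the interaction of genotype and alcohol (0.0%). DESeq2 also called 0 in each of the 6 comparisons. It gave an adjusted p for only 82, 116, 87, 104, 110 and 120 of the 120 combinations, in the order above, and the others could not be called. Its shares over all genes are not given here.

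At an unadjusted p under 0.05 the count was 10 of 80 (12.5%) for alcohol-exposed 3xTg-AD mice versus WT controls, against 12.8% of all genes. It was 5 (6.25%, against 6.80%) for 3xTg-AD and 8 (10.0%, against 9.20%) for alcohol-exposed WT mice, each versus WT controls. These 3 shares lie near those of all genes. It was 2 (2.5%) in each of the other 3 comparisons, against 8.31%, 9.16% and 4.10%. DESeq2, run on all 120 without the filter on low counts, gave 14, 7, 8, 7, 4 and 3. The last 3 are for alcohol-exposed versus unexposed 3xTg-AD mice, alcohol-exposed 3xTg-AD versus alcohol-exposed WT mice and the interaction. These counts have no share of all genes beside them and cannot be set against the edgeR shares. The direction was less even, although the 3 comparisons share their WT controls and the classes share their mice. All 10, 5 and 8 were lower than in WT controls, and 58, 49 and 60 of the 80 fold changes were negative (72.5%, 61.25% and 75.0%, against 50.1%, 50.1% and 50.9% of all genes). Of the 10, 5 and 8, Cacna1i gave 4, 3 and 2 and Cacna1d 2, 0 and 5. The share of all genes lower at that p is not given here. The members did not all share the direction. Cacna1g had positive fold changes in 6, 7 and 6 of its 9 classes, and Cacna1b in 5, 6 and 6 of 11. The median log2 fold changes were -0.15, -0.05 and -0.13, with medians over all genes of -0.00095, -0.00054 and -0.0062. In the comparisons without WT controls, 54 of 80 (67.5%) were negative for alcohol-exposed versus unexposed 3xTg-AD mice and 39 of 80 (48.75%) for alcohol-exposed 3xTg-AD versus alcohol-exposed WT mice, against 49.8% and 50.1% of all genes. The interaction was negative for 32 of 80 (40.0%, against 49.4%). The medians of these 3 were -0.07, 0.0059 and 0.05, and of the 2 tests in each at an unadjusted p under 0.05, 1, 0 and 0 were negative. The groups did not overlap for 5 of the 80 combinations (6.63% of all genes) in alcohol-exposed 3xTg-AD mice versus WT controls. Of these, 3 were lower, where 3.53% of all genes were lower without overlap. The count was 3 (3.37%) in 3xTg-AD and 2 (5.31%) in alcohol-exposed WT mice. All of these were lower, beside 1.68% and 2.49% of all genes. Between alcohol-exposed and unexposed 3xTg-AD mice it was 2 (4.8%), with 1 lower (2.62% of all genes). Between alcohol-exposed 3xTg-AD and alcohol-exposed WT mice it was 2 (6.01%), with 0 lower (3.07% of all genes).

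**Figure D3:**
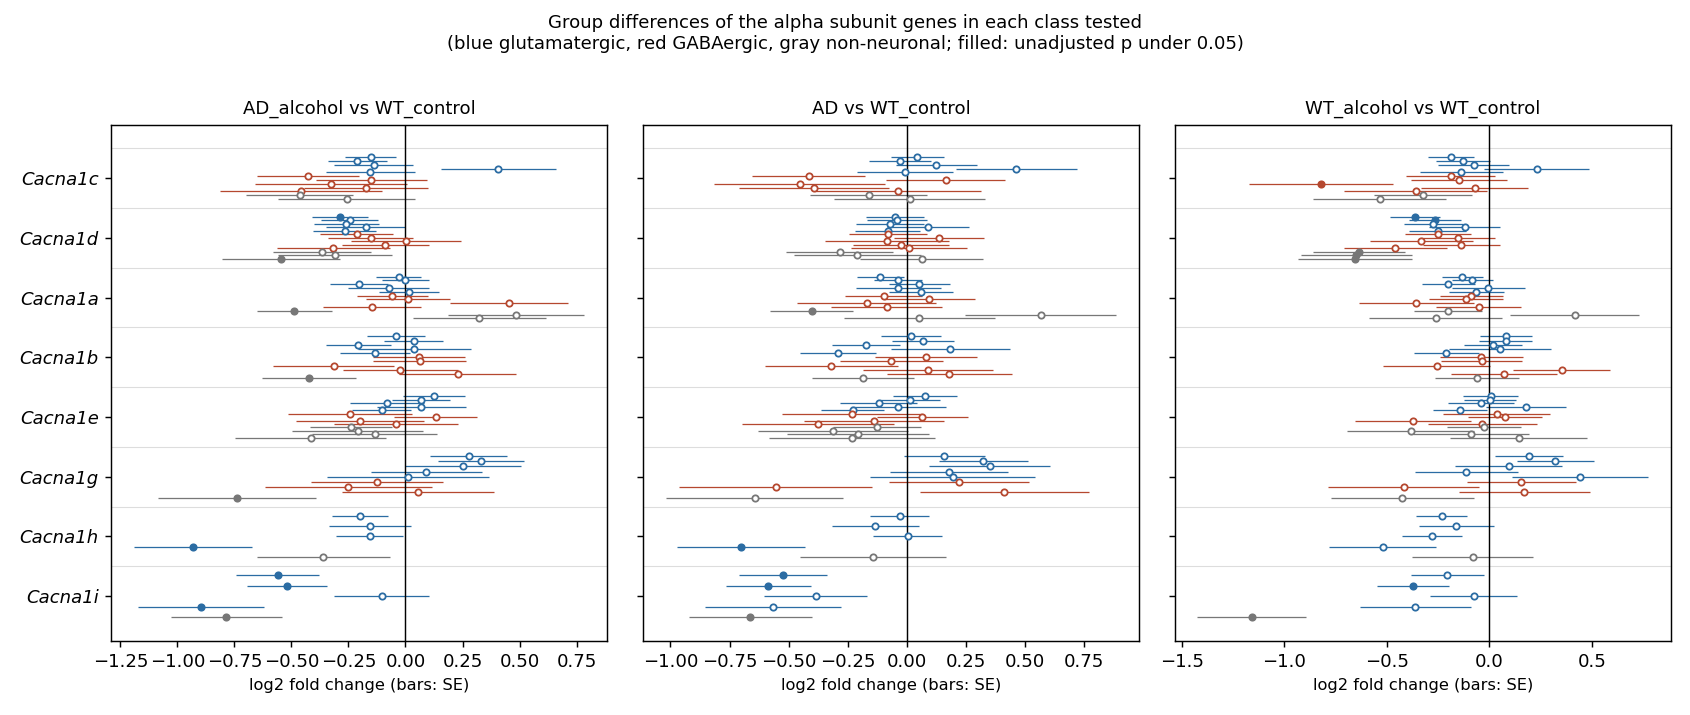
Log2 fold change versus WT controls (x axis, bars are SE) of each alpha subunit gene in each class where it was tested (1 point per class), for alcohol-exposed 3xTg-AD, unexposed 3xTg-AD and alcohol-exposed WT animals; filled points have an unadjusted p under 0.05, and none passed the adjusted threshold. In the fit shown, Cacna1i lies below 0 in all 5 classes of each comparison, Cacna1d in 12, 9 and 13 of 13 classes. Under other settings Cacna1i did not stay below 0 in every class.

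Cacna1i had negative log2 fold changes in 5 of 5 classes in each of the 3 comparisons with WT controls. It was the member called over all nuclei and in glutamatergic nuclei, but not in GABAergic nuclei. These sums mix classes, and their make-up was not adjusted for. A mouse had 196 to 691 layer 6 CT and 564 to 1503 superficial IT nuclei. The part of class make-up in these calls was not tested. Over 22 other settings some of the fold changes in the 5 classes turned just above 0. In alcohol-exposed WT mice they reached 0.0684 in layer 6 CT, 0.0598 in layer 5 ET and 0.0038 in superficial IT nuclei. Alcohol-exposed 3xTg-AD mice reached 0.0298 in layer 5 ET and unexposed 3xTg-AD mice 0.0429 in layer 6 CT nuclei. Over all nuclei, the WT controls held 41.7 (mouse 26), 37.0 (27), 27.5 (28) and 25.7 CPM (36). The alcohol-exposed 3xTg-AD mice held 23.3 (4), 21.6 (31), 21.05 (33) and 18.4 CPM (34), all below the lowest WT control. The 3xTg-AD mice held 24.6 (12), 21.3 (13), 22.4 (14) and 22.6 CPM (21), also without overlap, and the alcohol-exposed WT mice 26.9 (6), 24.6 (7), 25.5 (17) and 21.4 CPM (18), overlapping the WT controls. Cacna1i was lower in alcohol-exposed 3xTg-AD mice by a log2 fold change of -0.64 (SE 0.136, edgeR, adjusted p = 0.0147), where 4.06% of all genes were called. In unexposed 3xTg-AD mice it was -0.54 (SE 0.137, edgeR, adjusted p = 0.118; 0.435% of all genes called) and in alcohol-exposed WT mice -0.42 (SE 0.136, edgeR, adjusted p = 0.257; 0.0179% called). The highest values belong to mice 26 and 27, the WT controls with the most Gm42418, and mouse 12 was the highest of the unexposed 3xTg-AD mice. Without these 3 mice the log2 fold change of alcohol-exposed 3xTg-AD mice was -0.33 (SE 0.114, edgeR, adjusted p = 0.122), which did not pass the test and rests on 2 WT controls. The differences of unexposed 3xTg-AD and alcohol-exposed WT mice were then -0.27 and -0.12. The call was also lost without mouse 34 (edgeR, adjusted p = 0.0505).

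In glutamatergic nuclei the WT controls held 42.7 (26), 31.5 (27), 27.98 (28) and 24.7 CPM (36) of Cacna1i. The alcohol-exposed 3xTg-AD mice held 24.7 (4), 20.6 (31), 22.2 (33) and 19.5 CPM (34), just short of overlap. The log2 fold change was -0.54 (SE 0.146, edgeR, adjusted p = 0.0465), where 3.6% of all genes were called (0.471% for unexposed 3xTg-AD and 0.00645% for alcohol-exposed WT mice). The 3xTg-AD mice held 24.0 (12), 20.2 (13), 22.4 (14) and 22.8 CPM (21), also below the WT controls, and the alcohol-exposed WT mice 30.3 (6), 25.4 (7), 25.6 (17) and 22.1 CPM (18). Neither of these groups passed the test, with log2 fold changes of -0.50 (SE 0.147, edgeR, adjusted p = 0.209) and -0.29 (SE 0.145, edgeR, adjusted p = 0.449). Leaving out mice 12, 26 and 27 brought the difference of alcohol-exposed 3xTg-AD mice to -0.27 (edgeR, adjusted p = 0.288), and leaving out mouse 26 alone to -0.36 (edgeR, adjusted p = 0.159). Without mouse 26 those of unexposed 3xTg-AD and alcohol-exposed WT mice were -0.32 and -0.11. Of the 16 fits that each leave out 1 mouse, 13 did not call it, and the 3 that did left out mouse 6, 12 or 36. The alcohol-exposed and unexposed 3xTg-AD mice differed by -0.04 (SE 0.147, edgeR, adjusted p = 0.954), and the interaction was 0.25 (SE 0.207, edgeR, adjusted p = 0.985).

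In GABAergic nuclei Cacna1i was at 25.7 ± 9.45 CPM in WT controls (SD, n = 4), 14.5 ± 3.54 in alcohol-exposed 3xTg-AD, 12.7 ± 4.47 in 3xTg-AD and 18.2 ± 4.96 CPM in alcohol-exposed WT mice. The log2 fold changes versus WT controls were -0.82 (SE 0.284, edgeR, adjusted p = 0.163), -1.05 (SE 0.319, edgeR, adjusted p = 0.27) and -0.49 (SE 0.268, edgeR, adjusted p = 0.582), in the same order. None passed the test, here or under 22 other settings, over which they ranged from -1.09 to -0.55, from -1.34 to -0.78 and from -0.65 to -0.22.

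In single classes no fold change of Cacna1i passed the test. In Rorb+ layer 5 IT nuclei, where its level was highest, WT controls held 56.5 (26), 45.1 (27), 35.6 (28) and 38.6 CPM (36). The alcohol-exposed 3xTg-AD mice held 38.0 (4), 26.4 (31), 34.1 (33) and 24.1 CPM (34), the 3xTg-AD mice 34.4 (12), 24.0 (13), 31.2 (14) and 27.4 CPM (21), and the alcohol-exposed WT mice 40.9 (6), 34.5 (7), 35.004 (17) and 26.8 CPM (18). Only the unexposed 3xTg-AD mice did not overlap the WT controls. The log2 fold changes were -0.52 (SE 0.175, edgeR, adjusted p = 0.113), -0.59 (SE 0.179, edgeR, adjusted p = 0.216) and -0.37 (SE 0.176, edgeR, adjusted p = 0.456), in the same order. In alcohol-exposed 3xTg-AD mice the change was -0.90 (SE 0.276, edgeR, adjusted p = 0.0969) in layer 6 CT, -0.56 (SE 0.182, edgeR, adjusted p = 0.0916) in superficial IT and -0.10 (SE 0.208, edgeR, adjusted p = 0.891) in layer 5 ET nuclei. In layer 6 CT nuclei WT controls held 48.6 (26), 27.9 (27), 33.3 (28) and 19.4 CPM (36) of Cacna1i and alcohol-exposed 3xTg-AD mice 15.6 (4), 15.4 (31), 23.6 (33) and 13.995 CPM (34). There the 3xTg-AD mice held 15.6 (12), 17.2 (13), 21.3 (14) and 32.1 CPM (21) and the alcohol-exposed WT mice 28.1 (6), 21.3 (7), 24.97 (17) and 20.001 CPM (18), so that all groups overlapped the WT controls. In superficial IT nuclei WT controls held 27.8 (26), 18.4 (27), 18.996 (28) and 15.8 CPM (36) and alcohol-exposed 3xTg-AD mice 14.1 (4), 16.4 (31), 12.1 (33) and 11.6 CPM (34). The 3xTg-AD mice, at 12.5 (12), 14.7 (13), 15.6 (14) and 13.1 CPM (21), lay below the WT controls there, and the alcohol-exposed WT mice, at 20.3 (6), 16.8 (7), 16.6 (17) and 16.3 CPM (18), overlapped them, as did the alcohol-exposed 3xTg-AD mice. Both classes were chosen after the values were seen. Without mouse 26 the log2 fold change of alcohol-exposed 3xTg-AD mice was -0.36 in Rorb+ layer 5 IT, -0.55 in layer 6 CT and -0.37 in superficial IT nuclei. Without mice 12, 26 and 27 it was -0.26, -0.46 and -0.34. In Rorb+ layer 5 IT nuclei those of 3xTg-AD and alcohol-exposed WT mice were -0.43 and -0.21 without mouse 26, and -0.42 and -0.12 without the 3 mice.

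In astrocytes, chosen for a closer look after the values were seen, WT controls held 44.6 (26), 36.7 (27), 32.8 (28) and 23.2 CPM (36) of Cacna1i. The alcohol-exposed WT mice held 16.0 (6), 15.5 (7), 17.6 (17) and 11.7 CPM (18), below every WT control. The difference was -1.16 on the log2 scale (SE 0.264, edgeR, adjusted p = 0.124), the largest of Cacna1i versus WT controls among the 5 classes that passed the filter on low counts. The alcohol-exposed 3xTg-AD mice held 18.3 (4), 24.6 (31), 17.7 (33) and 17.7 CPM (34) and differed by -0.79 (SE 0.243, edgeR, adjusted p = 0.113). The 3xTg-AD mice held 30.9 (12), 14.03 (13), 19.2 (14) and 24.7 CPM (21) and differed by -0.66 (SE 0.261, edgeR, adjusted p = 0.429). Both 3xTg-AD groups overlapped the WT controls. Without mice 12, 26 and 27 the differences were -0.87 for alcohol-exposed WT, -0.49 for alcohol-exposed 3xTg-AD and -0.52 for 3xTg-AD mice. Each mouse rests on 11 to 36 UMIs of Cacna1i here. Without any filter on low counts the difference in alcohol-exposed WT mice was -1.14 (edgeR, adjusted p = 0.0213). The astrocyte level was within the range of the single glutamatergic markers given above.

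**Figure D4:**
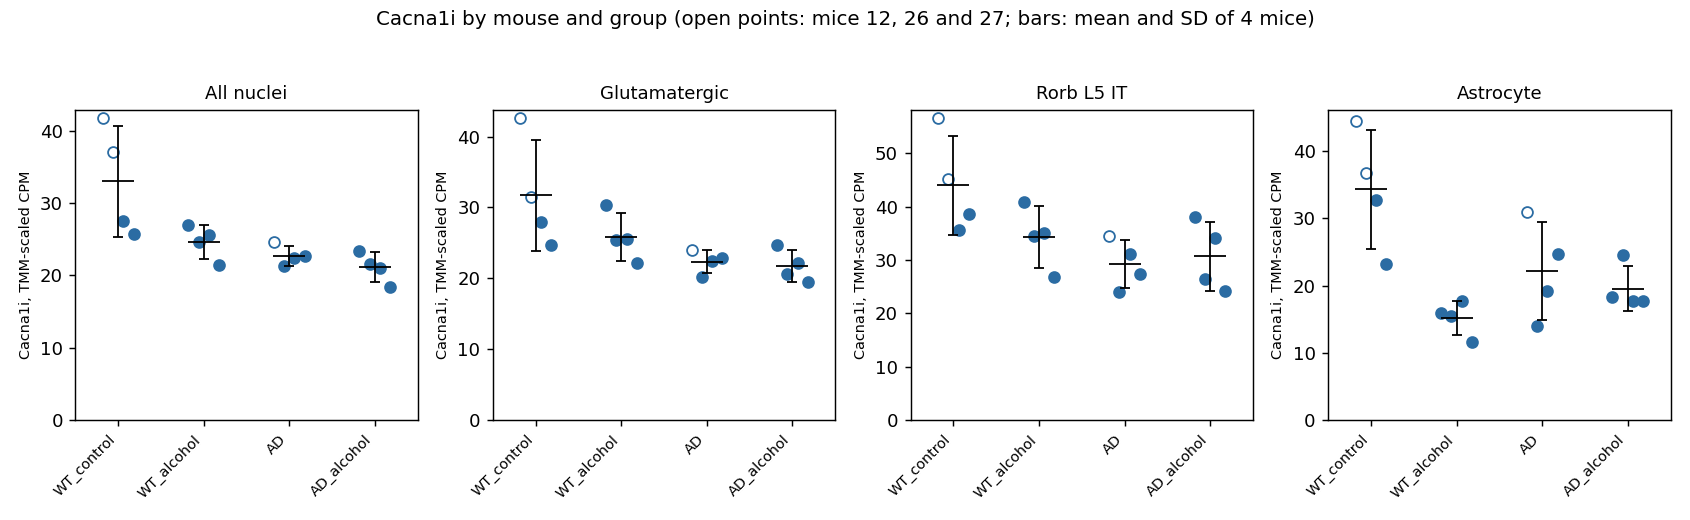
TMM-scaled CPM of Cacna1i (y axis, from 0) by mouse in the 4 groups (x axis), over all nuclei, in glutamatergic nuclei, and in Rorb+ layer 5 IT nuclei and astrocytes; bars are the mean and SD of 4 mice, and open points are mice 12, 26 and 27, which held the most Gm42418. Over all nuclei WT controls lie between 25.7 and 41.7 CPM and alcohol-exposed 3xTg-AD mice between 18.4 and 23.3 CPM, and the open points are the highest of their groups in all 4 panels.

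Cacna1h in layer 6 CT nuclei had the smallest adjusted p of the members in a single class, and was also chosen after the values were seen. The WT controls held 33.2 (26), 34.3 (27), 27.8 (28) and 25.2 CPM (36). The alcohol-exposed 3xTg-AD mice held 18.2 (4), 14.7 (31), 18.6 (33) and 11.996 CPM (34), all lower. The 3xTg-AD mice held 19.8 (12), 22.1 (13), 13.5 (14) and 13.95 CPM (21), also below the WT controls, and the alcohol-exposed WT mice 28.1 (6), 11.8 (7), 16.2 (17) and 25.3 CPM (18), which overlapped them. In alcohol-exposed 3xTg-AD mice the log2 fold change was -0.93 (SE 0.259, edgeR, adjusted p = 0.0603), with adjusted p between 0.0504 and 0.307 over 22 other settings. Each mouse rests on 5 to 44 UMIs here. Without mice 12, 26 and 27 the log2 fold change was -0.75.

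In layer 5 ET nuclei, the WT controls held 272 (26), 258 (27), 321 (28) and 291 CPM (36) of Cacna1h, and the alcohol-exposed WT mice 273 (6), 255 (7), 204 (17) and 211 CPM (18). The 3xTg-AD mice held 230 (12), 293 (13), 355 (14) and 275 CPM (21), and the alcohol-exposed 3xTg-AD mice 315 (4), 232 (31), 230 (33) and 247 CPM (34). All groups overlapped, and the log2 fold changes versus WT controls were -0.16 (SE 0.15) for alcohol-exposed 3xTg-AD mice (edgeR, adjusted p = 0.72), 0.0032 for 3xTg-AD mice and -0.28 for alcohol-exposed WT mice.

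Cacna1d had negative log2 fold changes versus WT controls in 13 of 13 classes in alcohol-exposed WT mice, with a median log2 fold change of -0.27, and in 12 of 13 classes in alcohol-exposed 3xTg-AD mice, with a median of -0.26. In unexposed 3xTg-AD mice 9 of 13 were negative, with a median of -0.05. None of these passed the test, with smallest adjusted p (edgeR) of 0.322, 0.198 and 0.775. In layer 6 CT nuclei, where it peaked, the WT controls held 633 (26), 863 (27), 575 (28) and 685 CPM (36) and the alcohol-exposed WT mice 545 (6), 596 (7), 603 (17) and 574 CPM (18). The 3xTg-AD mice held 804 (12), 638 (13), 501 (14) and 647 CPM (21), and the alcohol-exposed 3xTg-AD mice 528 (4), 547 (31), 576 (33) and 638 CPM (34). The groups overlapped, and mice 27 and 12 were the highest of theirs. The log2 fold change of alcohol-exposed 3xTg-AD mice was -0.27 (SE 0.138, edgeR, adjusted p = 0.419), and -0.14 without mouse 27.

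Cacna1a in Vip nuclei, chosen after the values were seen, had positive differences in alcohol-exposed 3xTg-AD mice, which held 328 (4), 289 (31), 289 (33) and 294 CPM (34). The WT controls held 246 (26), 99.0 (27), 216 (28) and 285 CPM (36), the 3xTg-AD mice 162 (12), 165 (13), 249.98 (14) and 187 CPM (21) and the alcohol-exposed WT mice 202 (6), 76.7 (7), 183 (17) and 192 CPM (18). All 4 alcohol-exposed 3xTg-AD mice lay above every mouse of the other groups, the nearest being WT control 36. The log2 fold changes of alcohol-exposed 3xTg-AD mice were 0.45 versus WT controls (SE 0.259, edgeR, adjusted p = 0.687), 0.62 versus 3xTg-AD (SE 0.257, edgeR, adjusted p = 0.671) and 0.81 versus alcohol-exposed WT mice (SE 0.24, edgeR, adjusted p = 0.164), so that none passed the test. The first of these was 0.27 without mouse 27, and each mouse rests on 5 to 41 UMIs.

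The other members overlapped between groups in the class of their highest level. Cacna1a in Pvalb nuclei was at 465 (26), 345 (27), 399 (28) and 348 CPM (36) in WT controls and at 390 (4), 396 (31), 325 (33) and 381 CPM (34) in alcohol-exposed 3xTg-AD mice. The alcohol-exposed WT mice held 372 (6), 365 (7), 410 (17) and 320 CPM (18) and the 3xTg-AD mice 299.9 (12), 376 (13), 338 (14) and 441 CPM (21). Cacna1e in superficial IT nuclei was at 405 (26), 532 (27), 442 (28) and 516 CPM (36) in WT controls and at 491 (4), 574 (31), 524 (33) and 476 CPM (34) in alcohol-exposed 3xTg-AD mice. The alcohol-exposed WT mice held 506 (6), 533 (7), 419 (17) and 447 CPM (18) and the 3xTg-AD mice 653 (12), 501 (13), 418 (14) and 427 CPM (21). Their log2 fold changes in alcohol-exposed 3xTg-AD mice versus WT controls were -0.06 (SE 0.16) and 0.13 (SE 0.14).

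Cacna1b and Cacna1c in Cnr1+ Sncg nuclei and Cacna1g in Lamp5 nuclei rest on few UMIs per mouse. Cacna1b was at 265 (26), 225 (27), 509 (28) and 412 CPM (36) in WT controls, 514 (6), 321 (7), 326 (17) and 367 CPM (18) in alcohol-exposed WT mice, 259 (12), 542 (13), 509 (14) and 370 CPM (21) in 3xTg-AD mice and 580 (4), 479 (31), 268 (33) and 352 CPM (34) in alcohol-exposed 3xTg-AD mice. Cacna1c was at 99.5 (26), 282 (27), 185 (28) and 114 CPM (36) in WT controls, 142 (6), 226 (7), 90.03 (17) and 73.5 CPM (18) in alcohol-exposed WT mice, 187 (12), 126 (13), 215 (14) and 164 CPM (21) in 3xTg-AD mice and 203 (4), 69.9 (31), 94.5 (33) and 121 CPM (34) in alcohol-exposed 3xTg-AD mice. Cacna1g was at 82.1 (26), 63.7 (27), 187 (28) and 45.3 CPM (36) in WT controls, 124 (6), 85.8 (7), 101 (17) and 129 CPM (18) in alcohol-exposed WT mice, 178 (12), 92.5 (13), 90.3 (14) and 182 CPM (21) in 3xTg-AD mice and 110 (4), 73.6 (31), 113 (33) and 120 CPM (34) in alcohol-exposed 3xTg-AD mice. The spread within a group was as wide as that between groups in all 3. The log2 fold changes in alcohol-exposed 3xTg-AD mice were 0.23 (SE 0.25), -0.46 (SE 0.35) and 0.05 (SE 0.33). That of Cacna1c moved between -0.88 (without mouse 4) and -0.14 (without mouse 27). Those of Cacna1b and Cacna1g changed sign without mice 12, 26 and 27, as given below.

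The auxiliary subunits and binding partners of the channels also differed in level between classes. Of the 4 beta subunits, which carry the alpha subunit to the membrane, Cacnb2 was highest in Cnr1+ Sncg nuclei (208 ± 57.6 CPM), Cacnb4 in layer 5-6 NP nuclei (285 ± 45.8 CPM), and Cacnb3 in astrocytes (128 ± 25.7 CPM). These were above the next class in 13, 11 and 14 of 16 mice. Cacnb3 in astrocytes was 1.32-fold above superficial IT nuclei (96.8 CPM). Astrocytes also held neuronal markers, as given above, and the part of neuronal RNA in this level was not tested. Cacnb1 had close means in OPCs (55.8 ± 27.9 CPM) and astrocytes (53.5 CPM), with OPCs higher in 6 of 16 mice. The alpha2delta subunits, the binding sites of gabapentin for Cacna2d1 and Cacna2d2, split the interneurons. Cacna2d1 was highest in Lamp5 (696 ± 118 CPM) and lowest in Pvalb nuclei (53.5 CPM), and Cacna2d2 highest in Pvalb nuclei (342 ± 48.4 CPM, 15 of 16 mice above Sst). Cacna2d3 had its highest mean in Sst nuclei (451 ± 54.9 CPM), above Cnr1+ Sncg nuclei in only 10 of 16 mice, and Cacna2d4 did not exceed 7.18 CPM. Among gamma subunits and AMPA receptor regulators (TARPs), Cacng4 was 5.63-fold higher in OPCs (265 ± 65.2 CPM) than in the next class, in 16 of 16 mice. Cacng2 was highest in Pvalb (177 CPM, 14 of 16 mice above Vip), Cacng3 in superficial IT (149 CPM, 15 of 16 above Sst) and Cacng5 in Vip nuclei (32.9 CPM, 12 of 16 above layer 5-6 NP). The first place was less even for Cacng7 in Sst (38.2 CPM, 9 of 16 mice above Pvalb) and Cacng8 in layer 5 ET nuclei (59.0 CPM, 7 of 16 above Sst). Cacng1 and Cacng6 stayed at or under 3.06 CPM.

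Of the proteins that bind the channels, the release site proteins Rims1 (485 ± 127 CPM) and Rimbp2 (582 ± 101 CPM) were highest in Lamp5 nuclei, each in 16 of 16 mice, and Rims2 in layer 6 CT nuclei (1084 ± 113 CPM, 15 of 16 above Cnr1+ Sncg). Stac2 was highest in Pvalb nuclei (53.5 CPM, 14 of 16 mice above Cnr1+ Sncg). Cabp1 had its highest mean in superficial IT (118 CPM, 9 of 16 mice above layer 5 ET) and Cbarp in Sst nuclei (147 CPM, 8 of 16 above microglia). Stac, Rem2, Gem, Rrad and Rem1 did not exceed 4.65 CPM. The remaining pore genes were Nalcn, the sodium leak channel, highest in Lamp5 nuclei (142 ± 47.4 CPM, 11 of 16 mice above Vip), and Cacna1f and Cacna1s, at no more than 2.01 CPM in any class.

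Of 12 tests of the other pore genes, 43 of beta, 31 of alpha2delta and 41 of gamma subunits in each comparison, 0 were called, by edgeR, in any of the 6. At an unadjusted p under 0.05 the counts in alcohol-exposed 3xTg-AD mice versus WT controls were 0, 4 (9.30%), 5 (16.1%) and 2 (4.88%), against 12.8% of all genes. Of 110 tests of binding proteins, 1 was called between unexposed 3xTg-AD mice and WT controls, where 0.211% of all genes were called, and 0 in the other 5 comparisons. In alcohol-exposed 3xTg-AD mice versus WT controls, where 1.23% of all genes were called, 14 of the 110 (12.7%) had an unadjusted p under 0.05, a share close to the 12.8% of all genes.

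That protein was Rims1 in astrocytes, which held 45.6% of its glutamatergic level there, in the range of the single glutamatergic markers. The WT controls held 154 (26), 84.3 (27), 109 (28) and 105 CPM (36) of Rims1 and the 3xTg-AD mice 66.0 (12), 59.6 (13), 67.1 (14) and 69.2 CPM (21), without overlap. The alcohol-exposed 3xTg-AD mice held 70.0 (4), 83.2 (31), 72.4 (33) and 97.7 CPM (34) and the alcohol-exposed WT mice 116 (6), 66.2 (7), 105 (17) and 91.6 CPM (18), and both overlapped the WT controls. The log2 fold change of unexposed 3xTg-AD mice was -0.81 (SE 0.185, edgeR, adjusted p = 0.0494), and 6 of 22 other settings called it, with adjusted p between 0.00302 and 0.358. Without mice 12, 26 and 27 it was -0.72.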

How the data were processed

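Nuclei of 16 mice were sequenced with the 10x Chromium 3′ kit. Per the labels, the authors' processing used Cell Ranger 6.1.1, STAR and the mm10 build, and the deposited table holds raw UMI counts per gene and nucleus. Whether intronic reads and strand were used in counting is not given in the sources used here.

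Groups were taken from the labels. Nuclei were placed in classes by log likelihood against seed nuclei, which were picked by marker genes (162 of 164 in the table). Doublets were not called, and counts were summed per mouse and class where a mouse had at least 10 nuclei. Library totals were 9622031 to 17544364 UMIs from 4955 to 9096 nuclei. The sums were tested with edgeR 4.0.16 (R 4.3.3; quasi-likelihood, TMM, filterByExpr, Benjamini-Hochberg adjustment over all genes of a class and comparison, with calls made up to an adjusted p of 0.05) in 1 fit of the 4 groups. The steps were tested on simulated counts. DESeq2 1.42.0, RLE size factors, no filter on low counts, a stricter filter on nuclei, a stricter class cut and leaving out mice were tried as alternatives. The members and gene lists were chosen with earlier results of these data known. Values per mouse are given for each member in the class of its highest mean level and where it was called, and 5 other pairs (Cacna1a in Vip, Cacna1h in layer 6 CT, and Cacna1i in astrocytes, layer 6 CT and superficial IT nuclei) were chosen after their values were seen. For likeness, the 3 genes with the highest Pearson correlation over the 15 classes are named. Some genes of these lists are not reported here. Gene positions are from GENCODE vM21 (GRCm38).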

Additional observations from a re-analysis of the deposited data

Results flagged for a closer look

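In groups of 4 mice, the highest or lowest mouse was compared with its nearest neighbor by Dixon's ratio, in 60 groups, of which chance alone marks about 1 in 20. Of these, 5 stood out. Cacna1i in astrocytes of alcohol-exposed 3xTg-AD mice was at 24.6 CPM in mouse 31, with the next mouse at 18.3 CPM. In layer 6 CT nuclei of the same group, mouse 33 held 23.6 CPM of Cacna1i and the next mouse 15.6 CPM. In superficial IT nuclei of alcohol-exposed WT mice, mouse 6 held 20.3 CPM of Cacna1i and the next mouse 16.8 CPM. Cacna1a in Vip nuclei was at 76.7 CPM in alcohol-exposed WT mouse 7, from 6 UMIs, with the nearest mouse at 183 CPM, and at 328 CPM in alcohol-exposed 3xTg-AD mouse 4, with the nearest at 294 CPM. The 4 pairs of a gene and a class named here were chosen after their values were seen.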

How the results depend on the processing

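No paired analysis was possible because the mouse numbers are not shared between groups. The count of members called in single classes was 0 in each comparison, with 3 exceptions. For alcohol-exposed 3xTg-AD mice versus WT controls it was 1 with the stricter class cut (Cacna1i in astrocytes, edgeR, adjusted p = 0.0433) and from 0 to 1 when each mouse was left out (Cacna1i in layer 6 CT nuclei without mouse 36, edgeR, adjusted p = 0.0179). For alcohol-exposed WT mice versus WT controls it was 1 with no filter on low counts (Cacna1i in astrocytes). The fold change of Cacna1i over all nuclei in alcohol-exposed 3xTg-AD mice ranged from -0.75 to -0.50 when each mouse was left out, and that in glutamatergic nuclei from -0.65 to -0.36. The glutamatergic call was also lost with no filter (edgeR, adjusted p = 0.053) and with the stricter class cut (edgeR, adjusted p = 0.0515). For 3xTg-AD mice versus WT controls, Cacna1i over all nuclei was called by DESeq2 (adjusted p = 0.0416) and without mouse 36 (edgeR, adjusted p = 0.041). In GABAergic nuclei, Cacna1c of alcohol-exposed 3xTg-AD mice was called with no filter (edgeR, adjusted p = 0.0293) and without mouse 36 (edgeR, adjusted p = 0.0387). Small differences of alcohol-exposed 3xTg-AD mice from WT controls changed sign without mice 12, 26 and 27, to 0.000157 for Cacna1a in Pvalb, -0.082 for Cacna1b in Cnr1+ Sncg and -0.25 for Cacna1g in Lamp5 nuclei, and with single mice left out Cacna1a ranged from -0.12 to 0.034 and Cacna1g from -0.13 to 0.61. The cause was not tested. With single mice left out, that of Cacna1b in Cnr1+ Sncg nuclei ranged from 0.025 to 0.45, of Cacna1d in layer 6 CT from -0.33 to -0.14, of Cacna1e in superficial IT from 0.057 to 0.19 and of Cacna1h in layer 5 ET nuclei from -0.28 to -0.096.

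Few UMIs limit Cacna1i in most classes, Cacna1h in layer 6 CT nuclei, and Cacna1a, Cacna1b, Cacna1c, Cacna1e and Cacna1g in the small interneuron classes. Class names rest on seed nuclei picked by markers and on likeness to the profiles of these seeds. Many nuclei with few UMIs took no class. Neuronal markers had UMIs in the non-neuronal classes, and glutamatergic markers in the GABAergic classes. The differences of Cacna1i rest in part on mice 26 and 27, and that of Cacna1d in layer 6 CT nuclei in part on mouse 27.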
